A study of Homo sapiens with 14 samples.

Results

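The genes described here are 10 enzymes that oxidize reactive aldehydes, 9 aldehyde dehydrogenases (ALDH1A1, ALDH1A3, ALDH1B1, ALDH2, ALDH3A1, ALDH3A2, ALDH3B1, ALDH7A1 and ALDH9A1) and the alcohol dehydrogenase ADH5. They were chosen by name, with earlier results of these data known, as 10 of the 59471 gene names in the count files. Their transcripts were measured by polyA RNA-seq in 14 libraries of SCC23, an established line of head and neck squamous cell carcinoma (HNSCC). KMT2D-WT cells carried a control guide against LacZ, and KMT2D-KO cells were the lines KO1 and KO2, made with a transfected Cas9 and guide plasmid, sorted by GFP, with no cloning of single cells described. Cells were kept in high glucose (+Glc) or deprived of glucose for 6 h (-Glc). Each glucose condition held 3 KMT2D-WT and 4 KMT2D-KO libraries from 2 experiments. Experiment 1 held 1 library of WT, KO1 and KO2 each, and experiment 2 held 2 of WT and 1 of each line. Values are listed as WT of experiment 1, then both WT of experiment 2, and as KO1 and KO2 of experiment 1, then KO1 and KO2 of experiment 2, and libraries are numbered in that order within a group. The study describes the experiments as independent, whereas whether both WT libraries of experiment 2 came from separate cultures is not stated, so p-values measure the spread between these libraries, which may be technical.

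Reactive aldehydes such as formaldehyde and acetaldehyde arise from metabolism, alcohol and lipid peroxidation, and they can join the strands of DNA to each other or to protein. ADH5 oxidizes formaldehyde bound to glutathione, and ALDH2 oxidizes acetaldehyde and formaldehyde in mitochondria. What they leave behind is repaired by the Fanconi anemia (FA) pathway, and cells that lack these enzymes depend more on that pathway. Other members act on other substrates, retinal for ALDH1A1 and ALDH1A3, lipid aldehydes for ALDH3A1, ALDH3A2 and ALDH3B1, an aldehyde of lysine breakdown for ALDH7A1, and aminoaldehydes for ALDH9A1. KMT2D is a histone methyltransferase that places H3K4 methylation at enhancers. The libraries hold transcript counts, with no measure of aldehydes, of enzyme activity or of crosslinks.

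Promoter sequences are shown for 3 genes whose levels were higher in KMT2D-KO cells in both glucose conditions with TMM scaling of the libraries, 1 each for retinal, mitochondrial aldehyde and formaldehyde oxidation. They are RefSeq sequences of GRCh38.p14, from 250 bases before to 50 bases after the annotated start, and 8 of the 10 genes matched an entry in that table. Capitals mark GCGTG on either strand (CACGC on the other), the core of the xenobiotic response element.
ALDH1A3, chr15:100879581-100879880, plus strand: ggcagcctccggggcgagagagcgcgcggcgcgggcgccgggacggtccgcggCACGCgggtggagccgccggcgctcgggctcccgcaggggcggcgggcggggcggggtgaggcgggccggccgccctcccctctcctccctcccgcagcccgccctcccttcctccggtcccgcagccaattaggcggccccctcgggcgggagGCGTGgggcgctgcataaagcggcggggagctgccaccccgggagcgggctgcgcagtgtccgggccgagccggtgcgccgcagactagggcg
ALDH1B1, chr9:38392452-38392751, plus strand: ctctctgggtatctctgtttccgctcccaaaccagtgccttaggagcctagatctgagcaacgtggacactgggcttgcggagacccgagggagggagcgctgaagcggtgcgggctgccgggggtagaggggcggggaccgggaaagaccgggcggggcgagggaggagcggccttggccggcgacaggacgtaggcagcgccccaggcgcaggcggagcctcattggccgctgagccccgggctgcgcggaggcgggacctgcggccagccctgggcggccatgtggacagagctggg
ADH5, chr4:99088739-99089038, minus strand: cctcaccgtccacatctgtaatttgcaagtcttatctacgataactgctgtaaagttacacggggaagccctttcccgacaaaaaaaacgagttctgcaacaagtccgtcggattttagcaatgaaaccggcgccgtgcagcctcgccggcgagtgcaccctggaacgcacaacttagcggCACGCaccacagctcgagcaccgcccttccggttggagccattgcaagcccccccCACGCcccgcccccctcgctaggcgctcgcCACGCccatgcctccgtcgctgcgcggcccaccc
The ALDH1A3 sequence was 81.7% G and C with 46 CpG dinucleotides, against medians of 58.7% and 14 over all promoters of the table. ALDH1B1 had 71.3% and 27 CpG, and ADH5 61.3% and 29 CpG. The promoter of ALDH1A1 (chr9:72953004-72953303, minus strand), the member that was nearly silent in these cells, had 40.3% and 7 CpG. Entries of the other matched members had 4 and 12 CpG (ALDH3B1), 12 and 27 (ALDH3A2), 17 (ALDH7A1) and 26 (ALDH9A1). GCGTG occurred 2 times in the ALDH1A3 sequence, 3 times in that of ADH5 and not in that of ALDH1B1, and 36.5% of all 35116 promoters hold it. TATAAA, TGACNNNGC (the antioxidant response core) and TGANTCA (the AP-1 site), searched on both strands, occurred in none of the entries of the 8 matched genes, and 11.5%, 13.3% and 7.71% of all promoters hold them. CACGTG (the E-box) occurred in 1 entry of ALDH3A2 and 1 of ALDH3B1, against 7.26% of all promoters. A match is a description of these letters only.

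Several facts of the libraries touch the results. Total counts ranged from 15669154 to 62968057, and the 4 +Glc libraries of experiment 2 were counted by mate rather than by pair, which left 67.4% to 70.6% even values among counts from 1 to 10 (37.4% to 42.7% in the other 10 libraries). In experiment 2, glucose condition and read layout therefore cannot be told apart. The KMT2D transcript was 272 ± 6.95 CPM (CPM, the TMM-scaled share of a library's counts, SD, n = 3) in WT and 266 ± 97.4 CPM (n = 4) in KO cells kept in glucose (log2 fold change -0.02, edgeR adjusted p = 0.967). In glucose-deprived cells KMT2D was 239, 233 and 231 CPM in WT, and 19.9, 190.2, 152 and 145 CPM in KO cells (log2 fold change -0.90, edgeR adjusted p = 0.247). KMT2D therefore overlapped between the genotypes in glucose, whereas without glucose every KO library lay below every WT library. Over 19 genes that differed by at least 3 on the log2 scale between KO1 and KO2 in glucose, the glucose-deprived library labelled KO1 of experiment 2 lay 0.391 from the mean of KO2 and 4.01 from that of KO1, and with a gap of at least 4, which left 6 genes, it lay 0.586 and 4.84 away. That cut of 3 was set after values at 4 had been seen. By this measure 3 of the 4 glucose-deprived KO libraries resembled KO2, so the difference between glucose conditions in KO cells also compares different mixtures of lines. The KO pair and the WT pair of glucose-deprived experiment 2 differed little (chi-square per gene 1.71 and 1.65, against 23.0 to 72.7 in the 4 other pairs within a group and experiment), and results with each pair summed are given below.

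SCC23 cells expressed squamous and epithelial genes, with 10 markers summing to between 947 and 3524 CPM in a library. EPCAM lay between 231 and 426 CPM and SFN between 436 and 1127 CPM, whereas KRT6A did not exceed 1.13 CPM. In glucose-deprived cells 7 of the 10 markers were higher in KO and none lower (edgeR adjusted p under 0.05). Of all genes tested there, 25.9% were higher and 24.9% lower. The 10 markers summed to 1520 to 1893 CPM in WT and 1995 to 3524 CPM in KO cells. With glucose the level was 1204 to 1928 CPM in WT and 947 to 2038 CPM in KO cells, with KRT14 lower. Of the 8 markers of other cells, PTPRC and CD3E stayed at or below 0.0627 CPM, and the 8 summed to 3.63 to 8.35 CPM in WT and 9.79 to 21.1 CPM in KO cells. COL1A1 made up most of that (up to 16.0 CPM), and was higher in KO cells by 1.26 in glucose and 1.33 without glucose on the log2 scale. Mean CDH5 was 0.618 CPM in WT and 1.87 CPM in KO cells with glucose, and 0.546 and 2.67 CPM without. COL3A1 reached 5.26 CPM in KO cells kept in glucose, against 0.207 CPM in WT. CD68, PECAM1 and ALB did not exceed 0.426 CPM in any library. MKI67, a proliferation marker, fell in KO cells by 1.17 in glucose and by 1.72 without glucose on the log2 scale. The part of these shifts in the results was not tested. In bulk RNA, fewer cells of a kind and less RNA per cell cannot be told apart.

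Among themselves, the members spanned a wide range of levels. On the length-scaled TPM (counts per exonic length, scaled to the same sum in every library) scale, ALDH1A3 had the highest mean over the 14 libraries with 123 TPM, a mean to which 8 KO libraries contribute, followed by ALDH9A1 with 92.9 TPM, ADH5 with 74.3 TPM, ALDH1B1 with 71.0 TPM and ALDH3A2 with 30.5 TPM. ALDH3A1 had 12.2 TPM, ALDH7A1 10.2 TPM, ALDH2 2.37 TPM, ALDH3B1 2.25 TPM and ALDH1A1 0.0904 TPM. In WT cells kept in glucose the order was ALDH9A1 (82.6 TPM), ADH5 (69.9 TPM), ALDH1B1 (55.9 TPM) and ALDH1A3 (48.0 TPM). Neighbours often overlapped within a group. In WT cells kept in glucose, ALDH9A1 and ADH5, ALDH1B1 and ALDH1A3, and ALDH3B1 and ALDH2 overlapped, and in KO cells kept in glucose so did each neighbour from ALDH1A3 through ALDH9A1 and ALDH1B1 to ADH5. Length here is the union of all annotated exons, which is 17914 bases for ALDH7A1 and 15331 for ALDH3A2, so their TPM are low for their counts.

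The summed level of the 10 genes was 294 to 319 TPM in WT and 434 to 540 TPM in KO cells kept in glucose. Under deprivation it was 347 to 386 TPM in WT and 413 to 506 TPM in KO cells. The groups did not overlap in either condition. Without glucose this rested on ALDH1A3, at 96.1 to 104 TPM in WT and 150 to 161 TPM in KO cells. The summed TPM of the remaining genes overlapped between the genotypes there. How often sums of as many other genes do not overlap was not counted. ALDH1A3 made up 11.2% to 21.3% of the summed TPM of the 10 genes in WT cells kept in glucose and 21.5% to 44.4% in KO cells, whereas the share of ALDH9A1 was 24.6% to 28.1% and 16.3% to 20.8%.

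**Figure D1:**
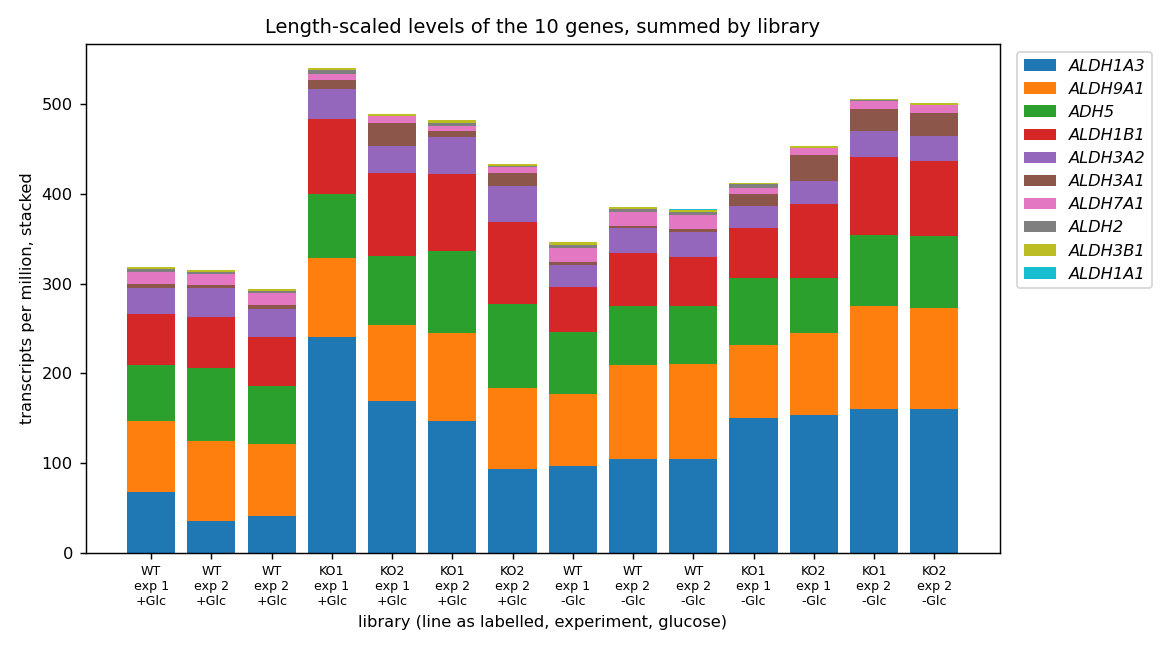
Stacked TPM (y axis) of the 10 genes in each of the 14 libraries (x axis, with the line as labelled, the experiment and the glucose condition), with 1 colour for each gene. The 4 KO libraries kept in glucose reach between 434 and 540 TPM, above the 294 to 319 TPM of the 3 WT libraries, and ALDH1A3 is the layer at the bottom of each bar.

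Comparing KMT2D-KO with KMT2D-WT cells asks which members differ with the genotype. Of the 9 members tested in cells kept in glucose, 6 were higher and 1 lower in KO, whereas 24.7% of all 20423 genes tested were called (13.0% higher and 11.7% lower). In glucose-deprived cells 6 were higher and 2 lower, against 50.8% of 16782 genes (25.9% higher and 24.9% lower). The median log2 fold change of the 9 was 0.40 in glucose, where that of all genes was 0.02, and 0.53 without glucose, where that of all genes was 0.00. Since the members were chosen with earlier results of these data known, these counts and medians are a description and test nothing about the family. A gene was called at an edgeR adjusted p under 0.05 with experiment as a covariate. Where libraries of the genotypes are said below not to overlap, the share of all genes that do not overlap was not counted. ALDH1A1 had 31 counts over the 14 libraries and was not tested. In glucose, edgeR called only ALDH1A3 and ALDH1B1 without the covariate, whereas DESeq2 without it called 7 members, and in glucose-deprived cells with the close pairs summed 4 members were called (ALDH1A3, ALDH1B1, ALDH3A1 and ALDH9A1), and without the covariate ALDH3B1 and ALDH7A1 were no longer called. Experiment 1 alone, which has 1 WT library, called ALDH1A3 in glucose and no member without glucose, where 2 had an unadjusted p under 0.05 in edgeR. Leaving out WT library 1 in glucose left 3 members called (ALDH1A3, ALDH1B1 and ALDH3A2).

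The calls of ALDH3A2, ALDH9A1 and ADH5 depended on how libraries were scaled. TMM scaling, used for CPM, fold changes and tests here, puts the median gene near 0, whereas TPM has no such step. On the length-scaled total, the scaling of TPM, the median gene stood at -0.11 in glucose and at -0.42 without glucose (KO against WT, log2). There 4 of 9 tested members were called in glucose (ALDH1A3, ALDH1B1 and ALDH3A1 higher, ALDH7A1 lower), and 5066 of 20423 genes. Without glucose 5 of 9 were called (the same 3 higher, ALDH3B1 and ALDH7A1 lower), and 9914 of 16782 genes. The members were thus called no more often than all genes without glucose. Of all called genes, 34.8% and 19.7% were higher in KO, against 52.7% and 51.0% with TMM. ALDH3A2, ALDH9A1 and ADH5 then stood at 0.26, 0.15 and 0.30 in glucose (edgeR adjusted p = 0.0523, 0.265 and 0.0663) and at 0.04, 0.10 and 0.16 without glucose (edgeR adjusted p = 0.596, 0.230 and 0.205). With plain library sizes the median gene stood at -0.03 and -0.25, and ALDH9A1 in glucose was the 1 call that ended (edgeR adjusted p = 0.0561). Relative to the median gene, no tested member moved by more than 0.0416 in glucose or 0.0137 without glucose between the scalings.

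**Figure D2:**
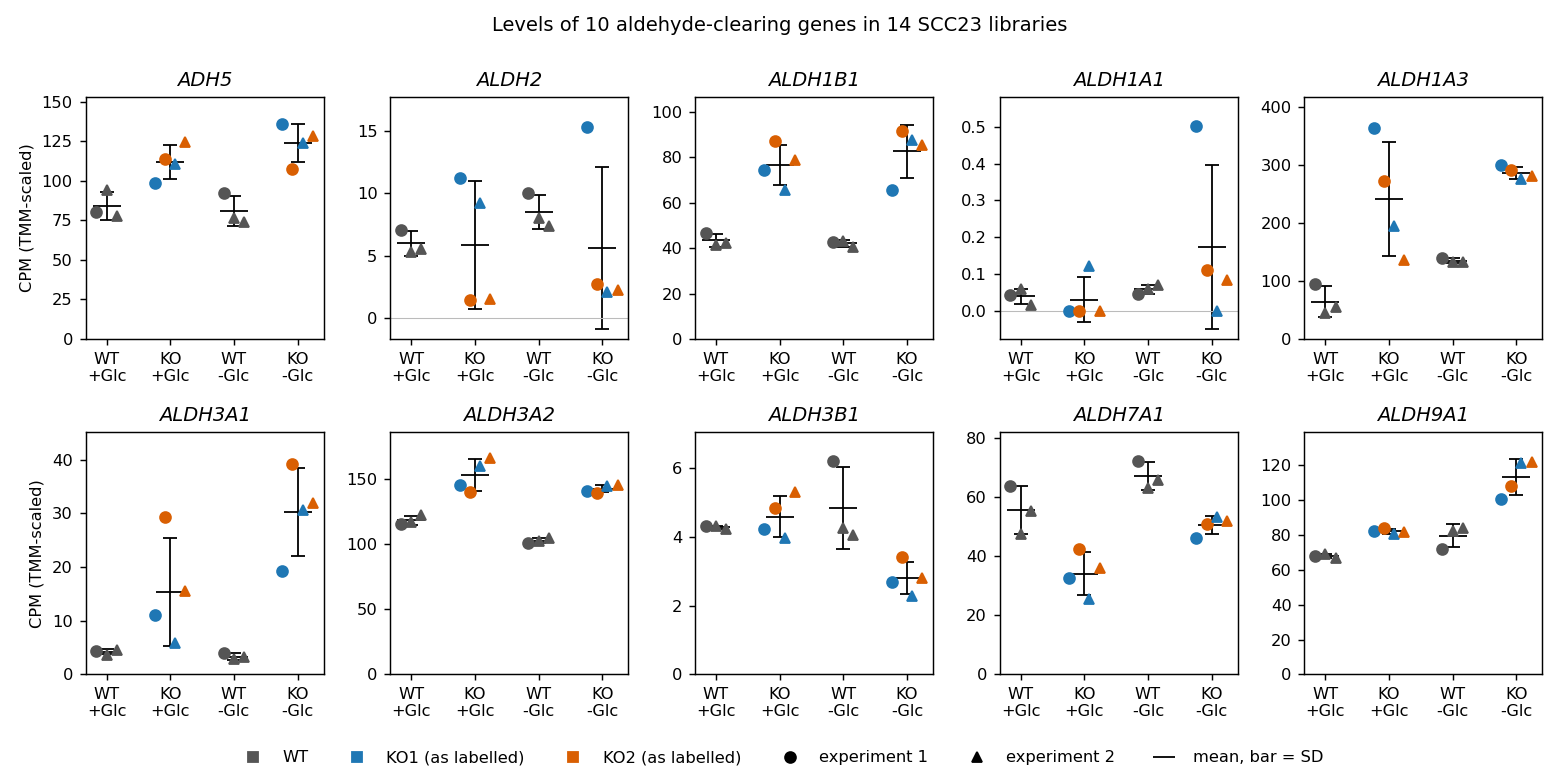
CPM after TMM scaling (y axis, linear) of the 10 genes, 1 panel each, in the 4 groups (x axis). Points are libraries coloured by line as labelled and shaped by experiment, and the black line and bar are mean and SD. On this scale ALDH1A3, ALDH1B1, ALDH3A1, ALDH3A2, ALDH9A1 and ADH5 lie higher in KO than in WT libraries in both conditions. How many of all genes lie apart in this way was not counted. In TPM, ALDH3A2, ALDH9A1 and ADH5 overlap in both conditions and ALDH1B1 overlaps without glucose. ALDH7A1 lies lower in KO libraries, and ALDH2 splits by line in glucose.

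ADH5, which clears formaldehyde, was higher in KO cells in both conditions on the TMM scale and was not called on the length-scaled total. In glucose its level was 80.2, 94.4 and 77.9 CPM in WT and 98.9, 114, 111 and 125 CPM in KO libraries. Every KO library lay above every WT library (1.36-fold in the fit, log2 fold change 0.44, SE 0.103, edgeR adjusted p = 0.0139). The -Glc levels were 92.1, 76.6 and 74.3 CPM in WT and 136, 108, 124 and 128 CPM in KO libraries, again with no overlap (1.504-fold, log2 fold change 0.59, SE 0.115, edgeR adjusted p = 0.00516). Leaving out WT library 1 or 3 ended the call in glucose, with adjusted p up to 0.108. In TPM the groups overlapped, at 63.1 to 82.4 in WT and 71.7 to 93.6 in KO with glucose and 64.2 to 69.7 and 62.1 to 80.3 without. ADH5 lies on chromosome 4 of GRCh38 from 99070978 to 99088801 on the minus strand. It has 4 named pseudogenes, which held 3015 counts over the 14 libraries, against 47962 for ADH5.

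ALDH2, the mitochondrial enzyme for acetaldehyde, was not called between the genotypes taken as groups, and the KO lines lay on opposite sides of WT. The +Glc levels were 7.09, 5.28 and 5.57 CPM in WT, 11.2 and 9.23 CPM in KO1, and 1.45 and 1.51 CPM in KO2. KO1 lay above and KO2 below every WT library, and KO2 against KO1 differed by -2.72 (SE 0.207, 95% confidence interval -3.16 to -2.29, edgeR adjusted p = 1.2e-07). Against WT, KO1 was higher by 0.73 on the log2 scale (edgeR adjusted p = 0.00197) and KO2 was lower, at -1.99 (edgeR adjusted p = 4.27e-06), whereas the genotype comparison gave -0.07 (SE 0.662, edgeR adjusted p = 0.958).

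Without glucose, ALDH2 was 10.0, 8.0 and 7.40 CPM in WT. KO1 of experiment 1 had 15.3 CPM and KO2 2.75 CPM, and in experiment 2 the library labelled KO1 had 2.14 CPM and KO2 2.26 CPM. The level of the library labelled KO1 in experiment 2 was near those of KO2 and far from that of KO1 in experiment 1. The genotype difference was -1.14 (SE 0.640, edgeR adjusted p = 0.177). Without KO1 of experiment 1, the library far from the other KO libraries, it was -1.86 and called (edgeR adjusted p = 2.63e-10). In that fit every KO library resembled KO2 by the measure above, and they include the close pair. It called 12448 of all genes, against 8521 with every library. ALDH2 lies on chromosome 12 from 111766887 to 111817532 on the plus strand, and 6.99% of its exonic bases overlap AC002996.1, which held 0 counts.

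ALDH1B1, a mitochondrial enzyme related to ALDH2, was higher in KO cells. In glucose it was 46.4, 41.3 and 42.4 CPM in WT and 74.4, 87.1, 65.7 and 78.6 CPM in KO libraries, with no overlap (1.74-fold, log2 fold change 0.80, SE 0.100, edgeR adjusted p = 0.000712). Without glucose it was 42.7, 43.1 and 40.3 CPM in WT and 65.4, 91.6, 87.6 and 85.4 CPM in KO libraries (1.95-fold, log2 fold change 0.96, SE 0.109, edgeR adjusted p = 0.000526). These calls held without any single library, with fold changes from 0.73 to 0.87 in glucose and 0.88 to 1.03 without glucose on the log2 scale. In TPM the -Glc groups overlapped (50.5 to 58.2 in WT, 56.1 to 87.3 in KO), though the call held on the length-scaled total. The gene lies on chromosome 9 from 38392702 to 38398661 on the plus strand.

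ALDH1A3, a retinal dehydrogenase, was the highest-ranked member by p in both conditions. With glucose the level was 94.5, 44.3 and 54.5 CPM in WT and 363, 272, 194 and 136 CPM in KO libraries. Experiment 1 lay above experiment 2 in both genotypes, yet every KO library lay above every WT library (3.37-fold, log2 fold change 1.75, SE 0.157, edgeR adjusted p = 0.000136). Under deprivation it was 139, 132 and 132 CPM in WT and 299, 291, 276 and 279.7 CPM in KO libraries (2.08-fold, log2 fold change 1.06, SE 0.0650, edgeR adjusted p = 6.54e-05). KO1 exceeded KO2 in glucose, by 0.45 on the log2 scale (KO2 against KO1 -0.45, SE 0.0951, edgeR adjusted p = 0.00316), a call that ended without KO library 3 or 4. Both lines exceeded WT, KO1 by 1.97 and KO2 by 1.5 on the log2 scale.

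ALDH1A3 lies on chromosome 15 from 100877714 to 100916626 on the plus strand, and 32.1% of its exonic bases (1715) overlap AC015712.2 on the opposite strand. The counts used no strand, so reads of the overlap cannot be told apart. AC015712.2 held 6506 counts over the 14 libraries, against 74529 for ALDH1A3, and was itself higher in KO cells (log2 fold change 1.02, edgeR adjusted p = 0.00200 in glucose, and 0.33, edgeR adjusted p = 0.0306 without glucose). ALDH1A1, the other retinal dehydrogenase listed, held 0 to 8 counts in a library (0 to 0.501 CPM), and its highest level was in KO1 of experiment 1 without glucose.

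ALDH3A1, which oxidizes lipid peroxidation aldehydes, showed the largest fold change of the members without glucose. There it was 3.94, 2.81 and 3.21 CPM in WT and 19.3, 39.2, 30.6 and 31.8 CPM in KO libraries, with no overlap (8.96-fold, log2 fold change 3.16, SE 0.257, edgeR adjusted p = 0.000149). The +Glc levels were 4.43, 3.67 and 4.48 CPM in WT and 11.1, 29.2, 5.79 and 15.5 CPM in KO libraries (3.20-fold, log2 fold change 1.68, SE 0.435, edgeR adjusted p = 0.0216). Here the KO libraries spread widely, and KO2 exceeded KO1 in both experiments (log2 fold change 1.43, SE 0.192, edgeR adjusted p = 6.35e-05). Leaving out WT library 1, 2 or 3 or KO library 4 ended the call in glucose, with adjusted p up to 0.174. Each line was called against WT by itself, KO1 with 0.83 and KO2 with 2.24 on the log2 scale.

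ALDH3A2, which oxidizes long-chain fatty aldehydes, was higher in KO cells by a smaller factor on the TMM scale, and was not called on the length-scaled total. In glucose it was 115, 117 and 122 CPM in WT and 145, 139.7, 159.9 and 166 CPM in KO libraries, with no overlap (1.32-fold, log2 fold change 0.40, SE 0.0721, edgeR adjusted p = 0.00427). The -Glc levels were 101, 102.4 and 104 CPM in WT and 140.4, 139, 144 and 145 CPM in KO libraries (1.38-fold, log2 fold change 0.46, SE 0.0634, edgeR adjusted p = 0.00117). In TPM the groups overlapped, and without glucose they spanned 24.2 to 28.6 in WT and 24.5 to 29.2 in KO. The KO lines did not differ detectably, with KO2 against KO1 at 0.01 (95% confidence interval -0.16 to 0.19). It lies on chromosome 17 from 19648136 to 19685760 on the plus strand, beside ALDH3A1 (19737984 to 19748943, minus strand).

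ALDH3B1, which acts on lipid aldehydes at membranes, was lower in KO cells without glucose. It was 6.21, 4.27 and 4.05 CPM in WT and 2.70, 3.42, 2.28 and 2.80 CPM in KO libraries, with no overlap (log2 fold change -0.85, SE 0.158, edgeR adjusted p = 0.00410). Without the covariate this call was not made. With glucose the level was 4.30, 4.31 and 4.22 CPM in WT and 4.24, 4.84, 3.97 and 5.30 CPM in KO libraries, which overlapped (log2 fold change 0.11, 95% confidence interval -0.29 to 0.51, edgeR adjusted p = 0.701). Its counts ranged from 43 to 312 in a library. The gene lies on chromosome 11 from 68008578 to 68029282 on the plus strand.

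ALDH7A1, which works in lysine breakdown, was the member that was lower in KO cells in both conditions. The +Glc levels were 63.7, 47.4 and 55.3 CPM in WT and 32.6, 42.5, 25.4 and 36.0 CPM in KO libraries, with no overlap (log2 fold change -0.74, SE 0.144, edgeR adjusted p = 0.00580). Without glucose it was 72.1, 63.0 and 65.8 CPM in WT and 46.3, 50.8, 53.2 and 51.8 CPM in KO libraries (log2 fold change -0.42, SE 0.0725, edgeR adjusted p = 0.00294). The call in glucose ended without WT library 1 (adjusted p = 0.0639). KO2 exceeded KO1 in glucose (log2 fold change 0.46, SE 0.105, edgeR adjusted p = 0.00564), and that call ended without KO library 3 or 4. Its 4 named pseudogenes held 172 counts, against 22769 for ALDH7A1, which lies on chromosome 5 from 126531200 to 126595362 on the minus strand.

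ALDH9A1, which oxidizes aminoaldehydes of carnitine and GABA synthesis, was higher in KO cells by a smaller factor on the TMM scale, and was not called on the length-scaled total. In glucose it was 67.8, 69.1 and 66.7 CPM in WT and 82.6, 84.0, 80.7 and 81.6 CPM in KO libraries, with no overlap (1.21-fold, log2 fold change 0.28, SE 0.0764, edgeR adjusted p = 0.0274). Leaving out any WT library or KO library 2, or applying no filter on low counts, ended this call, with adjusted p up to 0.193 over the libraries left out. Under deprivation it was 72.0, 82.4 and 84.2 CPM in WT and 101, 108, 122 and 122 CPM in KO libraries (1.44-fold, log2 fold change 0.53, SE 0.0615, edgeR adjusted p = 0.000613). In TPM the groups overlapped, and without glucose they spanned 80.2 to 107 in WT and 81.5 to 114 in KO. The gene lies on chromosome 1 from 165662216 to 165698863 on the minus strand, and 6.02% of its exonic bases overlap other genes.

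**Figure D3:**
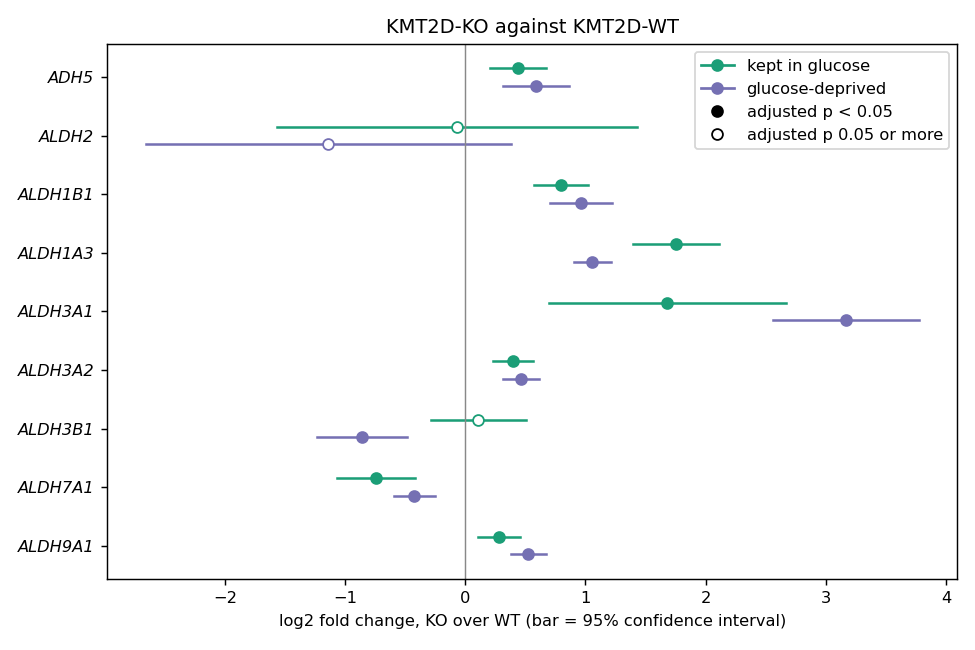
Log2 fold change of KO over WT with TMM scaling (x axis) of the 9 tested genes (y axis) in cells kept in glucose (green) and glucose-deprived (purple), with 95% confidence intervals. Filled points have an adjusted p under 0.05. ALDH3A1 without glucose lies at 3.16 and ALDH7A1 at -0.74 in glucose, and the bars of ALDH2 cross 0.

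Between the KO lines in glucose, 2 of the 9 tested members were higher and 2 lower in KO2 than in KO1, against 14.7% of 21850 genes. ALDH3A1 and ALDH7A1 were higher in KO2, and ALDH2 and ALDH1A3 were higher in KO1. None of the 4 was called without the experiment covariate, by edgeR, where 2 of the 9 had an unadjusted p under 0.05, and DESeq2 without the covariate called 1 of them. On the length-scaled total 25.5% of all called genes were higher in KO2, against 50.3% with TMM.

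The difference of the KO effect between glucose conditions asks whether the genotypes respond alike to deprivation. It was called for 2 of the 9 tested members (22.2%), both lower, against 11.3% of 18678 genes. For ALDH1A3 the KO effect was smaller without glucose (difference -0.67 on the log2 scale, SE 0.180, edgeR adjusted p = 0.0338), from 1.75 in glucose to 1.06 without glucose in the separate fits. For ALDH3B1 the KO effect turned from 0.11 to -0.85 (difference -0.94, SE 0.242, edgeR adjusted p = 0.0279). Leaving out 1 of the 14 libraries ended the call of ALDH1A3 in 9 fits (adjusted p up to 0.106), and it held only without WT 3, KO 2 or KO 4 in glucose or KO 1 or KO 2 without glucose. That of ALDH3B1 ended in 8 fits (adjusted p up to 0.133), and it held only without KO 1, KO 2 or KO 3 in glucose or KO 1, KO 2 or KO 4 without glucose. ALDH3A1 had a difference of 1.51 (95% confidence interval 0.29 to 2.74, edgeR adjusted p = 0.102) and ALDH9A1 of 0.27 (0.07 to 0.48, edgeR adjusted p = 0.0812), and neither passed. On the length-scaled total 5.18% of all called genes had a higher difference, against 42.0% with TMM.

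Glucose deprivation called 1 of the 9 tested members in WT cells (11.1%), against 16.4% of genes. In KO cells it called 4 higher and 1 lower (55.6%), against 52.6%, so members were called about as often as all genes. In WT cells ALDH1A3 was higher by 0.99 (SE 0.139, edgeR adjusted p = 0.000301), with 0.56 in experiment 1 (edgeR adjusted p = 0.316) and 1.42 in experiment 2. In KO cells ALDH9A1 was higher by 0.46 (edgeR adjusted p = 5.59e-05), ALDH7A1 by 0.57 (edgeR adjusted p = 0.00157), ALDH3A1 by 1.04 (edgeR adjusted p = 0.0219) and ALDH1A3 by 0.32 (edgeR adjusted p = 0.0337). ALDH3B1 was lower, at -0.72 (edgeR adjusted p = 0.00253). Within experiment 1, where the layout did not differ, ALDH9A1 was the 1 member called in KO cells (0.34, edgeR adjusted p = 0.00691), and ALDH1A3 stood at -0.11 (edgeR adjusted p = 0.633). ALDH1A3 and ALDH3A1 were also not called with the close pairs summed, and each lost its call in 4 of the 14 fits that left out a library. The fits that ended a call left out KO 2 and KO 4 in glucose and KO 3 and KO 4 without glucose for ALDH1A3 (adjusted p up to 0.111), and KO 1 and KO 3 in glucose and KO 2 and KO 4 without glucose for ALDH3A1 (adjusted p up to 0.0723). On the length-scaled total, where 25.9% of all called genes were higher in KO cells against 52.9% with TMM, ALDH1A3 stood at -0.00956 and lost its call in KO cells, as did ALDH3A1 (0.75) and ALDH9A1 (0.14), and ALDH3A2 was called lower (-0.42). With plain library sizes ALDH1A3 also lost its call (0.09) and ALDH3A2 was called lower (-0.32).

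**Figure D4:**
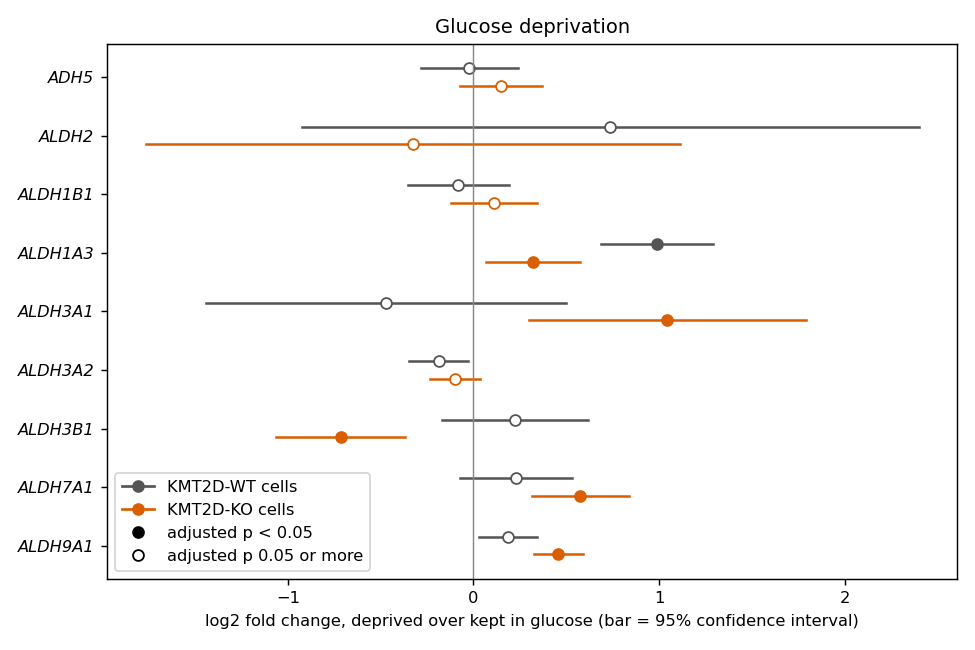
Log2 fold change of glucose-deprived over glucose-kept cells with TMM scaling (x axis) of the 9 tested genes (y axis) in WT (grey) and KO (orange) cells, with 95% confidence intervals and filled points at an adjusted p under 0.05. ALDH1A3 in WT lies at 0.99, ALDH3B1 in KO at -0.72 and ALDH9A1 in KO at 0.46.

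The other genes of aldehyde metabolism were counted from lists, on the TMM scale alone. Their counts stand against 13.0% of all genes higher and 11.7% lower in KO in glucose, and 25.9% and 24.9% without glucose. Of other aldehyde dehydrogenases, 0 of 8 tested were called in KO cells in glucose by edgeR (1 at an unadjusted p under 0.05), and 1 of 7 without glucose, ALDH18A1 (log2 fold change 0.23, edgeR adjusted p = 0.0276), a proline synthesis enzyme. ALDH6A1 (0.27), ALDH4A1 (0.30) and ALDH1L2 (0.43) did not pass. Of genes for formaldehyde and one-carbon or glutathione metabolism, 3 were higher and 1 lower of 11 in glucose, and 8 higher and 1 lower of 10 without glucose (36.4% and 90.0% called). The serine enzyme SHMT2 differed by 0.94 (edgeR adjusted p = 0.00108), the glutathione reductase GSR by 0.66 (edgeR adjusted p = 0.000736) and MTHFD1L by 0.53 (edgeR adjusted p = 0.000471) without glucose, and ESD, which completes formaldehyde oxidation after ADH5, by 0.36 (edgeR adjusted p = 0.0126). GCLM, of glutathione synthesis, was lower (-0.56, edgeR adjusted p = 0.000525).

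Of aldehyde reductases, 3 were higher and none lower of 13 in glucose, and 7 higher and 1 lower of 12 without glucose (23.1% and 66.7% called). Those 3 were the near-identical AKR1C1, AKR1C2 and AKR1C3, at 3.16, 3.66 and 2.63 in glucose and 3.19, 3.38 and 3.01 without glucose on the log2 scale, and counting may split reads between them. AKR1B1 was at 0.31 without glucose (edgeR adjusted p = 0.00414). Of retinoid genes, 3 were higher and 1 lower of 15 in glucose, and 5 higher and 2 lower of 13 without glucose, which is 26.7% and 53.8% called, near the 24.7% and 50.8% of all genes. DHRS3, which turns retinal back to retinol, was at 0.96 and 2.73, and without glucose NRIP1 was at 0.99 (edgeR adjusted p = 0.000787), RARA at 0.46 (edgeR adjusted p = 0.00246) and RDH10, which makes retinal, at -0.72 (edgeR adjusted p = 0.0106).

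Crosslink repair genes were called about as often as all genes (22.2% against 24.7% in glucose, 55.6% against 50.8% without glucose). Of 36 tested, 1 was higher and 7 lower in KO cells in glucose, and 5 higher and 15 lower without glucose, with medians of -0.13 and -0.22 on the log2 scale, where those of all genes were 0.02 and 0.00. Without glucose the nuclease FAN1 was at -1.03 (edgeR adjusted p = 0.000204), the polymerase subunit REV3L at -0.95 (edgeR adjusted p = 0.000219), BRCA1 at -0.87 (edgeR adjusted p = 0.000314) and the nuclease scaffold SLX4 at -1.54 (edgeR adjusted p = 0.000384). In glucose FAN1 was at -0.13 (edgeR adjusted p = 0.288) and the others were lower, REV3L at -0.39, BRCA1 at -0.44 and SLX4 at -0.42. The -0.42 of the median gene on the length-scaled total without glucose is larger in size than the values of ALDH18A1, ESD and AKR1B1 given above.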

How the data were processed

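The authors mapped reads to GRCh38 with HISAT2 and counted them per gene with featureCounts 2.0.3 (Ensembl 102 gene names, no strand), and the deposited values are raw counts. File headers record primary alignments, whereas the methods describe uniquely mapped reads. The members and lists were chosen with earlier results of these data known.

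The test was that of edgeR 4.0.16, run in R 4.3.3 (TMM, filterByExpr at a minimum count of 10, quasi-likelihood test, Benjamini-Hochberg adjustment over all genes tested, threshold 0.05). Experiment was a covariate, since genotypes are unevenly spread over the experiments, whereas the study names DESeq2 and no covariate. Each glucose condition was fitted alone, and glucose effects and the difference of KO effects came from a joint fit of the 14 libraries, in which each glucose condition had its own experiment term. Alternatives were DESeq2 1.42.0, other scaling and filters, no covariate, single experiments and lines, halved counts, summed pairs and each library left out. Scaling by library size and by the length-scaled total (the sum of counts per exonic length) was added after seeing the data. The fits were also run on simulated counts. These were drawn independently for each library, so they do not cover the close pairs, the mixture of lines or the counting by mate. Named genes are the members, KMT2D, ESD, the up to 4 genes of each other list with the smallest adjusted p in glucose-deprived cells at a mean of at least 1 CPM, genes overlapping a member, and the markers. Sequences came from RefSeq.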

Additional observations from a re-analysis of the deposited data

Results flagged for a closer look

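ALDH2 in glucose-deprived KO cells was at 15.3 CPM in KO1 of experiment 1, far from the 2.14 to 2.75 CPM of the other 3 KO libraries, by Dixon's test at 95%. ALDH1A1 in KO cells kept in glucose was at 0.122 CPM in KO1 of experiment 2, which rests on 8 counts, and at 0 in the other 3. The test was made on 20 groups of 4 libraries, it marked 2, and chance marks about 1 in 20. That rate holds for 4 like values that vary continuously. The other values of ALDH1A1 were all 0, and the ALDH2 group mixed libraries that resembled KO1 and KO2. Neither mark can therefore be judged by it.

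The KO effect was called different between glucose conditions, by a test of the difference itself, for ALDH1A3 (-0.67 on the log2 scale, edgeR adjusted p = 0.0338) and for ALDH3B1 (-0.94, edgeR adjusted p = 0.0279). In the same fit 11.3% of all genes were called. Leaving out 1 of the 14 libraries ended the call in 9 fits for ALDH1A3 and in 8 for ALDH3B1. With the close pairs summed, or without the experiment covariate, 0 members were called. In experiment 2 the libraries kept in glucose were counted with both mates, and 3 of the 4 glucose-deprived KO libraries resembled KO2, and the part of either in these differences was not tested.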

How the results depend on the processing

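Over 1205 refits of single members, 1027 kept the direction and the side of the threshold, 109 lost a call, 30 gained one and 39 changed sign. Where a result moved, the cause was not tested. Of the 39, 2 began as called values, both ALDH1A3 with deprivation in KO cells, at -0.11 in experiment 1 and -0.00956 on the length-scaled total. No replicate block, that is no experiment covariate, left 2 members called for KO against WT in glucose (971 of all genes), 3659 genes without glucose, 0 members for the difference of KO effects (2 at an unadjusted p under 0.05, and 70 genes), 0 for deprivation in WT (1 unadjusted, and 23 genes), 3 for deprivation in KO (3220 genes) and 0 for KO2 against KO1 (2 unadjusted, and 11 genes), all by edgeR. Replicate numbers are names only, and experiment was the block used.

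DESeq2 without experiment called 2577 genes in glucose, 4821 without glucose, 0 members (3 unadjusted) and 591 genes for the difference, 656 and 4753 genes for deprivation in WT and KO, and 1 member and 461 genes between the lines. With experiment it called 4 members and 3473 genes for the difference, and 3 members for deprivation in WT. Experiment 1 alone called 1 member and 304 genes in glucose and 0 members (2 unadjusted) and 0 genes (2134 unadjusted) without glucose, and for deprivation 0 members (1 unadjusted) and 34 genes in WT and 1 member and 5087 genes in KO. Experiment 2 alone called 2 members and 2336 genes in glucose, 12888 genes without glucose, and 3 members and 5296 genes for deprivation in WT. Summed close pairs gave 4 members and 2785 genes without glucose, 0 members (2 unadjusted) and 258 genes for the difference, 1586 genes for deprivation in WT and 3 members for deprivation in KO. Each genotype fitted alone gave 5 members and 6361 genes in WT and 3 members in KO, and no filter on low counts gave 2 members for deprivation in WT.

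Leaving out each library gave 3 to 7 members and 2142 to 5048 genes in glucose, 8 to 9 members and 6031 to 12448 genes without glucose, 0 to 4 members and 788 to 4230 genes for the difference, 1 to 3 members and 1202 to 4806 genes for deprivation in WT, 3 to 6 members and 8292 to 11016 genes for deprivation in KO, and 2 to 5 members and 1094 to 3974 genes between the lines. The other changes of sign were ALDH2 in glucose (0.73 in KO1, and -0.997 to 0.33 over the libraries left out), ALDH3B1 in glucose (-0.0701 in KO1, and -0.00829 to 0.215), ADH5 with deprivation in WT (0.0222 with pairs summed, 0.0866 in experiment 1, 0.0140 with WT alone, and -0.163 to 0.0447), ALDH1B1 with deprivation (0.0328 in WT in experiment 2, -0.00316 in KO in experiment 1), ALDH2 with deprivation in KO (0.0259 by DESeq2 without experiment, 0.204 in experiment 1, and -1.23 to 0.409), and ALDH3A2 between the lines (-0.00638 without a filter, -0.00684 at a minimum count of 50, and -0.0527 to 0.0688). None of these began as a called value.

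Chosen after seeing the data, the length-scaled total left 4 members called in glucose, 5 without glucose and 3 for deprivation in KO. It called 5066, 9914 and 10465 of all genes there, and 3244 for the difference. It changed the sign of ALDH3B1 in glucose (-0.0280), of the difference for ALDH1B1 (-0.116), ALDH3A2 (-0.226), ALDH9A1 (-0.0422) and ADH5 (-0.138), of deprivation in KO for ALDH1B1 (-0.203) and ADH5 (-0.169), and of the lines for ALDH3A2 (-0.119) and ALDH9A1 (-0.0972). Library sizes did so for the difference of ALDH1B1 (-0.0319), ALDH3A2 (-0.137) and ADH5 (-0.0495), for deprivation in KO of ALDH1B1 (-0.111) and ADH5 (-0.0706), and for the lines in ALDH3A2 (-0.0653) and ALDH9A1 (-0.0439). None of these values began as called. RLE scaling and DESeq2 with experiment moved the share of higher calls by under 10 percentage points. Library sizes gave 45.4% higher in glucose, 30.2% without glucose, 9.90% for the difference, 33.7% for deprivation in KO and 35.0% between the lines.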
